A study of Mus musculus with 8 samples.

Results

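The 10 genes described here form the core of the circadian clock, and they were chosen by name: Arntl (also called Bmal1), Clock, Per1, Per2, Per3, Cry1, Cry2, Nr1d1, Nr1d2 and Dbp. All 10 were present among the 27179 genes of the deposited table, and all 10 had enough reads to be among the 14382 genes tested. They were followed in 8 primary mammary tumours of BALB/c mice, grown in the mammary fat pad from 4T1.13 cells, a metastatic line of murine mammary carcinoma. Of these, 4 arose from 4T1.13-VC cells, which carry a lentiviral vector with a scrambled RNA (VC, the vector control), and the other 4 were grown from the 4T1.13-miR-21-KD line, whose cells carry the same backbone with an H1-driven RNA that sequesters mature miR-21. Both lines express mCherry and hygromycin resistance, and each line was a pool of clones. Only the injected cells carry the vector, and the host cells of the tumours do not. The labels place the recovery at day 14 after injection, whereas the methods of the study give an earlier day, and the time of day at which the mice were culled is not given in the sources used here.

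In mammals the clock is a feedback loop of transcription. ARNTL and CLOCK pair on E-box elements and switch on the Per and Cry genes, whose proteins then repress the pair, while NR1D1 and NR1D2 (REV-ERB alpha and beta) repress Arntl through ROR elements that ROR proteins use to activate it. DBP is an output of the same E-box drive and acts in turn on D-box elements, including those of Per genes. Most cells of the body run this loop, and in breast tissue it is found in epithelium, fat and stroma alike.

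The clock genes that differed between the groups were all higher in miR-21-KD tumours. Dbp was about 3.04-fold, Nr1d1 1.77-fold and Per2 1.47-fold above VC, and these 3 of the 10 genes had an adjusted p under 0.05. The other 7, among them Arntl and Clock, did not pass this threshold, and no member was lower by this test. With the replicate number as a block, Dbp and Nr1d1 passed, Per2 did not (adjusted p = 0.0604) and Clock did (0.0402). Across all tested genes 39.1% passed, 19.6% upwards and 19.5% downwards, so 3 of 10 was below the overall share and somewhat above the upward share, a difference of about 1 gene. The median log2 fold change of the 10 genes was 0.24, against -0.01 for all tested genes, and 9 of the 10 estimates lay above 0. In bulk tumours a change in the number of cells that express a gene and a change in its RNA per cell cannot be told apart.

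Between 12134849 and 13592695 counts per tumour lay behind these values, and the numbers of reads on single clock genes ran from 38 for Dbp in VC replicates 2 and 3 to 1345 for Nr1d2 in VC replicate 1. CPM denotes counts per 1000000 after TMM scaling, and p-values were adjusted over all tested genes. Mir21a, the gene of the sequestered miRNA, had 0 counts in all 8 libraries, which allows up to 3 counts or 0.221 to 0.247 CPM. The knockdown sequesters the mature miRNA, so counts of its gene would not measure the knockdown at any level. The RNA levels of reported miR-21 targets were not examined here. The number of genes past the threshold, 5626, depended on single tumours. It was 3290 without VC replicate 2, 2936 without VC replicate 3, 3750 without miR-21-KD replicate 3 and 3366 without miR-21-KD replicate 4. Replicate 4 of both groups stood apart in the B cell markers of the leukocyte list, named here after their values were seen. Cd79a was at 31.7 CPM in VC replicate 4 and 0.399 to 0.885 CPM in the other VC tumours, and at 11.8 CPM in miR-21-KD replicate 4 and 1.49 to 1.70 CPM in the others of that group. Ms4a1 (CD20) followed the same tumours, with 25.5 against 0.160 to 0.959 CPM and 12.9 against 1.22 to 2.34 CPM. Without VC replicate 4 Dbp, Nr1d1 and Per2 passed, and without miR-21-KD replicate 4 Dbp and Nr1d1 did.

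Stretches around the start sites are shown for 4 clock genes: Dbp and Nr1d1, because they changed, and Arntl and Per3, because their windows hold the ROR element core and the D-box. Each RefSeq window (GRCm38.p6) reaches from 250 bases before the annotated start to 50 bases after it and is given 5' to 3' on the strand of the gene, with the searched motifs in capitals.
Dbp, chr7:45704997-45705296, strand plus: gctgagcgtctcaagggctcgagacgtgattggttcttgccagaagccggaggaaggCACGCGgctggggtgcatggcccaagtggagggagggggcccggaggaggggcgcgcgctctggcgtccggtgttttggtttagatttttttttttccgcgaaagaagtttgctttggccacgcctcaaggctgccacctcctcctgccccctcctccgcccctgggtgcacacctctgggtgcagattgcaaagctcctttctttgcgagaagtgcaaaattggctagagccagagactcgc
Nr1d1, chr11:98775328-98775627, strand minus: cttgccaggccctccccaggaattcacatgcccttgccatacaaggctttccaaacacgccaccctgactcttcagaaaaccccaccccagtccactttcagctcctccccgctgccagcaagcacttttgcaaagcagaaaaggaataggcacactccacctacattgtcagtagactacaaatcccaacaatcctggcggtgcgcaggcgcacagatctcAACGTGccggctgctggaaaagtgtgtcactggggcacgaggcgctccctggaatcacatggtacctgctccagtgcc
Per3, chr4:151044616-151044915, strand minus: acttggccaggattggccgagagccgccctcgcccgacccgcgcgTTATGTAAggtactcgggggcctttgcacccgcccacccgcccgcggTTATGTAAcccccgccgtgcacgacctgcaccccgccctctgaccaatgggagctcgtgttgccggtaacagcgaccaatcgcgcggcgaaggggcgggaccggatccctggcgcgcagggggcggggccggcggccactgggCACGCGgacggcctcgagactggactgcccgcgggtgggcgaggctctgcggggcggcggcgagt
Arntl, chr7:113207261-113207560, strand plus: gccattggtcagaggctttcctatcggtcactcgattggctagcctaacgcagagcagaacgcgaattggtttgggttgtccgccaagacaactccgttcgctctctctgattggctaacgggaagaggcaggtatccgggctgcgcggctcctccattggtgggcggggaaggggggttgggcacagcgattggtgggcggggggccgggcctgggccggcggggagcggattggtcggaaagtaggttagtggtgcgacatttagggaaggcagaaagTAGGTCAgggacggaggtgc

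The search covered both strands for the E-box CACGTG, its variants CACGTT and CACGCG, the D-box as TTATGTAA or TTACGTAA, and the ROR element core as TAGGTCA or TGGGTCA. None of the matches printed above overlap each other. Positions are those of the first base of a match. The Dbp window held a CACGCG 193 bases before the start, and the Nr1d1 window held AACGTG, which is CACGTT on the other strand, 28 bases before it. The Per3 window held TTATGTAA at 205 and 158 bases before the start and CACGCG at 15 bases before it. In the second of the 2 Arntl windows TAGGTCA began at base 31, counted from the start. Of 32851 windows in the table, 7.15% held CACGTG, 4.68% CACGTT, 9.27% CACGCG, 0.938% TTATGTAA, 0.119% TTACGTAA, 2.61% TAGGTCA and 3.98% TGGGTCA. Among the 9 clock genes with a window, CACGTG was found for Per1 and Cry1, and the single Nr1d2 window held none of the 7 motifs. Per2 had no window in the table. These are matches of letters, and binding of clock proteins was not measured.

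The mature miRNA that the knockdown sequesters is shown with its seed (bases 2 to 8) in capitals, and below it the clock genes that hold the matching 7 bases in their longest annotated 3' UTR, with the match in capitals and 10 bases on either side.
mmu-miR-21a-5p, chr11:86584120-86584141, strand minus: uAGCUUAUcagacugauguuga
Clock: cctggttttcATAAGCTatgtttggaa
Per2: tttaatgtaaATAAGCTctcagagttt

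The seed match ATAAGCT occurred once in the 6831 bases of the Clock 3' UTR and once in the 1889 bases of that of Per2. It was not found in the annotated 3' UTRs of the other 8 clock genes, which ran from 288 bases in Nr1d1 to 2631 in Nr1d2. Of 21007 protein-coding genes, 7.18% held it in the longest 3' UTR (GENCODE M21, GRCm38). The match is a description of the sequence, and binding was not measured in these data.

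The output gene Dbp (Entrez 13170, chromosome 7, 45705088 to 45710203, plus strand), which encodes a PAR bZIP transcription factor, showed the largest change of the 10. It had 4.79, 3.03, 2.995 and 4.33 CPM in VC replicates 1 to 4 and 16.5, 6.05, 9.50 and 14.1 CPM in miR-21-KD replicates 1 to 4. Every miR-21-KD value exceeded the highest VC value, and miR-21-KD replicate 2 was the closest to them. The mean rose from 3.79 ± 0.914 to 11.5 ± 4.67 CPM (± SD of 4 tumours). The log2 difference was 1.60 with an SE of 0.33, and the adjusted p in edgeR was 0.00994. At the threshold of 0.05 the call held in all 16 other fits (8 alternative settings and 8 omissions of a tumour), with log2 fold changes from 1.38 to 1.81. The annotated exons of Dbp share 539 bases, 18.0% of their length, with Sphk2 on the other strand, whose own level rose by 0.56 (SE 0.16, adjusted p = 0.0246). How the counting treated strand is not given in the sources used here, so reads of the shared stretch cannot be assigned to either gene with certainty.

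Of the REV-ERB pair, Nr1d1 rose and Nr1d2 did not pass the test. Nr1d1 (Entrez 217166, chromosome 11, 98767932 to 98775333, minus strand) had 50.3, 42.5, 46.4 and 27.5 CPM in VC replicates 1 to 4 and 79.9, 64.1, 79.3 and 72.6 CPM in miR-21-KD replicates 1 to 4. The groups did not overlap, and VC replicate 4 was the lowest tumour. The mean went from 41.7 ± 9.99 to 74.0 ± 7.37 CPM (± SD of 4 tumours). The log2 difference was 0.83 with an SE of 0.18, and the adjusted p in edgeR was 0.0110. At 0.05 the call held in all 16 other fits, with log2 fold changes from 0.67 (without VC replicate 4) to 0.93 (without VC replicate 1), but the adjusted p is not under the stricter threshold of 0.01. Its exons share 263 bases (8.55%) with Thra on the other strand, which fell by 0.38 (SE 0.11, adjusted p = 0.0282). Nr1d2, the paralog with a similar repressor function, measured 99.2, 94.5, 83.1 and 67.4 CPM across VC replicates 1 to 4, against 106.4, 76.9, 98.9 and 89.6 CPM across the miR-21-KD ones. These ranges overlapped widely, and the log2 fold change of 0.11 (SE 0.14, adjusted p = 0.559) was within the spread between tumours. Whether Nr1d1 and Nr1d2 differed from each other in their response was not tested.

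Among the repressors of the loop, Per2 passed the threshold by a small margin and the other Per and Cry genes did not. Per2 (Entrez 18627, chromosome 1, 91415982 to 91459324, minus strand) had 14.2, 17.6, 13.9 and 20.2 CPM in VC replicates 1 to 4 and 25.9, 16.98, 27.4 and 26.5 CPM in miR-21-KD replicates 1 to 4. Replicates 1, 3 and 4 of the miR-21-KD group exceeded every VC value, and replicate 2 lay among the VC tumours. The mean was 16.5 ± 3.02 CPM in VC against 24.2 ± 4.86 CPM in miR-21-KD tumours (± SD of 4 tumours). The log2 difference was 0.56 with an SE of 0.19, and the adjusted p in edgeR was 0.0446. The call was lost without VC replicate 1, 2 or 3 (adjusted p = 0.0964, 0.0821 and 0.120) and without miR-21-KD replicate 1, 3 or 4 (adjusted p = 0.0961, 0.111 and 0.108). It was also lost with no filter on low counts (0.0606), and a fit that blocks on the replicate number gave a log2 difference of 0.55 with adjusted p = 0.0604.

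Per1, which responds to light and to glucocorticoids as well as to the loop, measured 64.8, 59.8, 49.3 and 39.3 CPM across VC replicates 1 to 4, against 74.5, 62.7, 53.7 and 54.8 CPM across the miR-21-KD ones. Its log2 difference was 0.20 (SE 0.17) and the adjusted p 0.363. Per3 ranged from 16.4 to 18.3 CPM in VC and, with the knockdown, from 13.4 to 25.4 CPM. The lowest and the highest Per3 values of all 8 tumours were thus both in the miR-21-KD group, and its log2 fold change was 0.25 (SE 0.19, adjusted p = 0.313). Without miR-21-KD replicate 2, the lowest, it was 0.40 with an adjusted p of 0.0306. The cryptochromes, which bind the ARNTL and CLOCK pair directly, had estimates close to 0. Cry1 ranged from 15.9 to 20.9 CPM in VC and, with the knockdown, from 16.9 to 21.5 CPM (log2 difference 0.12, SE 0.13, adjusted p = 0.476). Cry2 ranged from 23.2 to 25.2 and from 20.3 to 24.0 CPM (log2 difference -0.10, SE 0.09, adjusted p = 0.419), and it was the only member with an estimate below 0. At an unadjusted p under 0.05, edgeR called 0 members lower, as did DESeq2 and limma-voom with and without quality weights.

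The activators of the loop were slightly above VC without passing the test. Arntl (Entrez 11865) measured 14.0, 12.3, 12.5 and 12.3 CPM across VC replicates 1 to 4, against 14.5, 14.5, 15.9 and 15.1 CPM across the miR-21-KD ones. The groups did not overlap, but they were only 1.18-fold apart, with means of 12.8 ± 0.843 and 14.99 ± 0.684 CPM (± SD of 4 tumours). The log2 difference was 0.23 (SE 0.11) and the adjusted p 0.114. In limma-voom with sample quality weights its adjusted p was 0.0271. Clock (Entrez 12753), the histone acetyltransferase that pairs with ARNTL, measured 58.3, 50.3, 46.0 and 37.3 CPM across VC replicates 1 to 4, against 62.3, 58.6, 64.1 and 48.5 CPM across the miR-21-KD ones. Its log2 difference was 0.28 (SE 0.15) and the adjusted p 0.149. A fit that blocks on the replicate number gave 0.29 and an adjusted p of 0.0402. Counting Arntl, Nr1d1 and Dbp, the groups did not overlap in 3 of the 10 genes, against 35.2% of all tested genes.

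**Figure D1:**
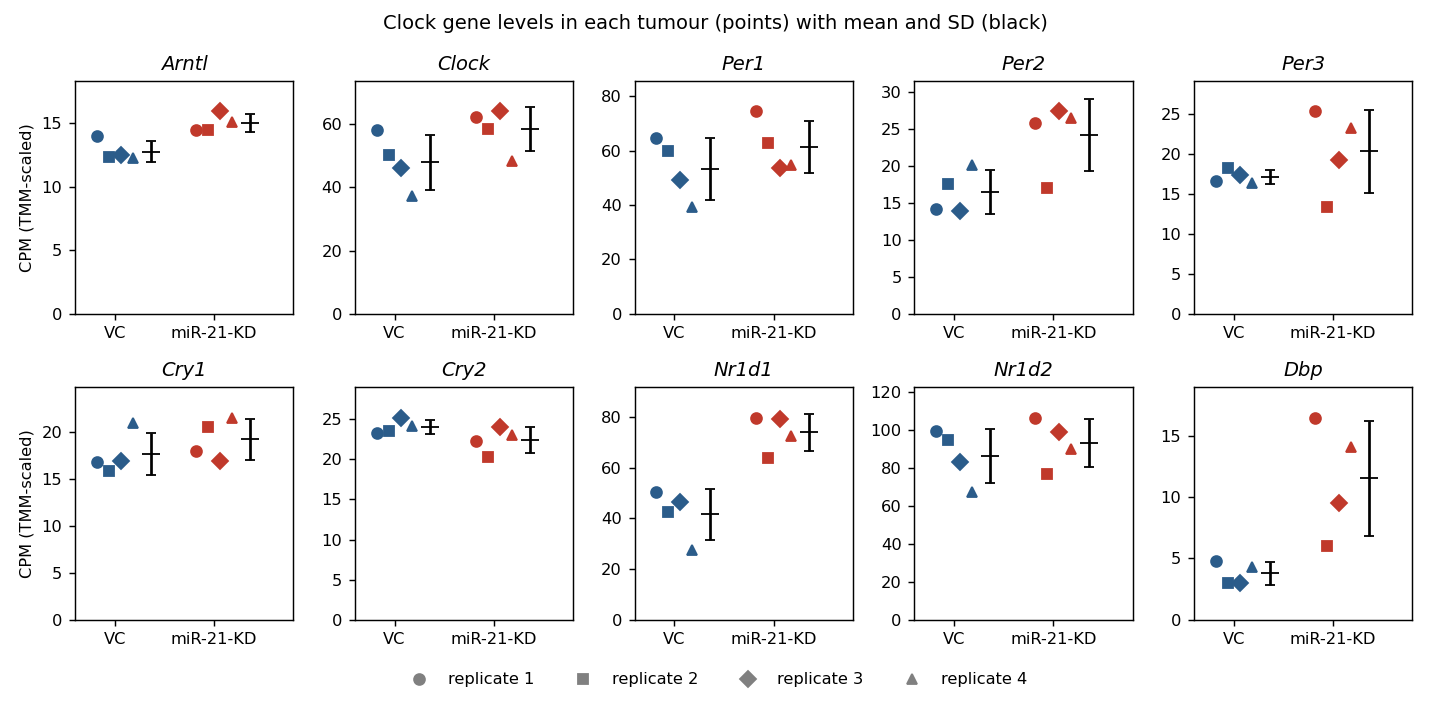
Level of each clock gene (CPM, TMM-scaled, axis from 0) in the 4 VC tumours (blue) and the 4 miR-21-KD tumours (red), with a symbol for each replicate number and the mean and SD in black. The groups are separate for Arntl, Nr1d1 and Dbp, and miR-21-KD replicate 2 (square) is the lowest of its group for Dbp, Nr1d1, Per2 and Per3.

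Levels of different genes were compared per kilobase of annotated exon. In VC tumours the highest were Nr1d2 with 15.9 ± 2.61 and Nr1d1 with 13.5 ± 3.25 CPM per kb (SD, n = 4), followed by Per1 with 9.47 ± 2.01. The ranges of mean ± SD overlapped between neighbours in this order. Cry1 came next with 5.28 ± 0.671, apart from both Per1 and Cry2. Cry2, Clock and Per2, with 3.80 ± 0.139, 3.495 ± 0.637 and 2.81 ± 0.515 CPM per kb, overlapped each with the next. Per3 with 1.79 ± 0.0884, Arntl with 1.70 ± 0.112 and Dbp with 1.27 ± 0.306 CPM per kb were the lowest, and of these Per3 and Arntl overlapped. In miR-21-KD tumours Nr1d1 was first with 24.0 ± 2.40 CPM per kb, above Nr1d2 with 17.2 ± 2.35, and Dbp, with 3.85 ± 1.56, overlapped with Cry1, Clock, Per2, Cry2 and Per3. These levels rest on the union of all annotated exons, which can be longer than the transcripts made in the tumours.

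**Figure D2:**
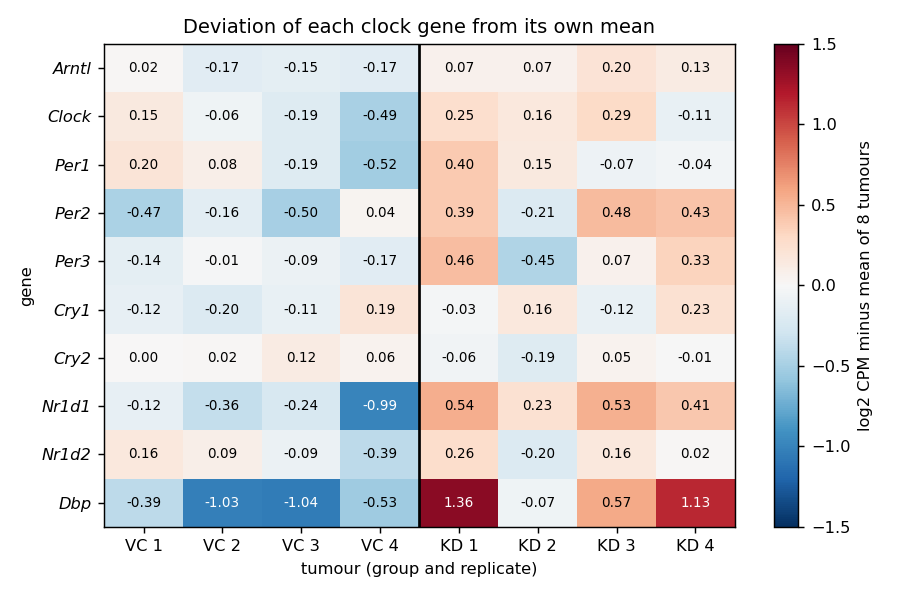
Heat map of log2 CPM minus the mean over all 8 tumours (colour scale and printed values in log2 units) for the 10 clock genes (rows) in the VC and miR-21-KD (KD) tumours (columns). Dbp spans the widest range, from -1.04 in VC 3 to 1.36 in KD 1, while Cry2 stays between -0.19 and 0.12.

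The clock genes did not all follow the same tumours. VC replicate 4 was the lowest of its group for 6 of the 10 genes (Arntl, Clock, Per1, Per3, Nr1d1 and Nr1d2) and the highest for Per2 and Cry1. This is the tumour with the high B cell markers, whose part in these levels was not tested. In the miR-21-KD group, replicate 2 was the lowest for 7 genes, replicate 1 was the highest for 5 (Per1, Per3, Nr1d1, Nr1d2 and Dbp), and replicate 3 was the highest for 4. The spread over the miR-21-KD tumours was widest for Dbp (2.72-fold from lowest to highest) and Per3 (1.89-fold) and narrowest for Arntl (1.10-fold). With 4 tumours per group that separate along the comparison, correlations between clock genes were not computed.

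The genes whose tumour-by-tumour pattern lay nearest to that of each called member were sought among 13008 genes with a mean of at least 1 log2 CPM, by the root mean square difference of centred log2 CPM over the 8 tumours. For Dbp these were Ctsf and Cygb (root mean square differences of 0.131 and 0.136), for Nr1d1 Jag1 and Spire1 (0.088 and 0.131) and for Per2 Sphk1 and Fam174a (0.091 and 0.101). Each of these 6 genes was itself higher in miR-21-KD tumours, with log2 fold changes of 1.57, 1.47, 0.83, 0.72, 0.56 and 0.56 in that order. The genes were picked for likeness over the tumours of both groups, so fold changes near those of the members follow from the selection.

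Beyond the 10 genes, a list of 27 further genes of the clock pathway was examined, of which 25 were tested and Rorb and Fbxl21 had too few reads. Of the 25, 3 rose and 5 fell with the knockdown, that is 8 of 25, which is below the 39.1% of all tested genes, and their median log2 fold change was 0.04. The count was 4 without VC replicate 3 and 5 without VC replicate 2, miR-21-KD replicate 1, 3 or 4.

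Rora, whose protein activates Arntl through the elements that NR1D1 occupies, measured 1.11, 0.479, 0.473 and 0.245 CPM across VC replicates 1 to 4, against 3.72, 1.73, 2.92 and 1.72 CPM across the miR-21-KD ones. Its log2 difference was 2.10 (SE 0.46) and the adjusted p 0.0118, from as few as 3 reads in a tumour. The groups did not overlap. At 0.05 the call held in every other fit that kept the gene, and it is lost at a threshold of 0.01.

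The other PAR bZIP genes did not move like Dbp as a group. Hlf measured 3.69, 0.479, 1.34 and 1.962 CPM across VC replicates 1 to 4, against 17.3, 3.54, 9.01 and 12.8 CPM across the miR-21-KD ones, and its log2 fold change of 2.50 (SE 0.62, adjusted p = 0.0167) was the largest of all clock pathway genes. Its highest VC tumour lay just above its lowest miR-21-KD tumour, and without VC replicate 3 its adjusted p was 0.0528. Tef, in contrast, had 67.8 ± 5.17 CPM in VC against 69.6 ± 14.3 CPM in miR-21-KD tumours (± SD of 4 tumours, log2 difference 0.04, SE 0.15, adjusted p = 0.857). Nfil3, which encodes a bZIP repressor that competes for D-boxes, had a log2 fold change of 0.18 (SE 0.19, adjusted p = 0.481).

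Of the E-box repressors outside the Per and Cry families, Bhlhe41 (DEC2) rose from 5.54 ± 2.16 to 12.5 ± 4.82 CPM (± SD of 4 tumours, log2 difference 1.17, SE 0.39, adjusted p = 0.0436). Its call was lost without VC replicate 1, 2 or 3 and without miR-21-KD replicate 1, 3 or 4, with adjusted p from 0.0726 to 0.107, as well as with no filter (0.0520) and in limma-voom (0.0624). Bhlhe40 (DEC1) had a log2 fold change of 0.44 (SE 0.26, adjusted p = 0.204) and Ciart, an output repressed by the REV-ERBs, 0.17 (SE 0.24, adjusted p = 0.594). Of the paralogs of the activators, Arntl2 had 17.01 ± 4.99 CPM in VC against 9.70 ± 5.60 CPM in miR-21-KD tumours (log2 difference -0.81, SE 0.40, adjusted p = 0.135), and Npas2 1.39 ± 0.628 and 2.82 ± 1.62 CPM (± SD of 4 tumours, log2 difference 1.01, SE 0.45, adjusted p = 0.104). With the replicate block Arntl2 and Npas2 passed, with adjusted p of 0.0357 and 0.0284, and Arntl2 also passed without miR-21-KD replicate 2 (0.0186) and with quality weights (0.0102).

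Other calls towards lower expression fell on genes with functions outside the clock as well. Nono, which encodes an RNA-binding protein that associates with PER, fell from 355.9 ± 30.2 to 213.8 ± 28.9 CPM (log2 difference -0.74, SE 0.12, adjusted p = 0.00586). Btrc, a subunit of the ubiquitin ligase that marks PER for degradation, fell from 32.5 ± 4.01 to 21.1 ± 2.16 CPM (log2 difference -0.62, SE 0.12, adjusted p = 0.00858). Timeless, which also acts at replication forks, fell by 0.50 (SE 0.13, adjusted p = 0.0202), and Hdac3, the deacetylase that REV-ERBs recruit with NCOR1, by 0.25 (SE 0.08, adjusted p = 0.0378). Timeless lost its call without VC replicate 2 or 3 and without miR-21-KD replicate 1, 3 or 4 (adjusted p from 0.0514 to 0.0618). Hdac3 lost it with the replicate block (0.0532), upper-quartile scaling (0.0654) and a minimum of 10 counts in each tumour (0.0726), and without VC replicate 1, 2 or 3 and miR-21-KD replicate 1, 3 or 4 (adjusted p from 0.0607 to 0.106).

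The kinases that phosphorylate PER and CRY proteins did not pass in edgeR, with log2 fold changes of -0.22 for Csnk1d (adjusted p = 0.0564), -0.22 for Csnk1e (0.0770), 0.28 for Csnk1a1 (0.0530), -0.15 for Gsk3a (0.109) and 0.15 for Gsk3b (0.425). The same held for the ubiquitin pathway genes Fbxw11 (-0.27, adjusted p = 0.0995) and Usp2 (0.01, 0.953) and for the cofactors Ncor1 (-0.30, 0.0741), Sirt1 (0.06, 0.643) and Nampt (0.16, 0.271). Several of these were near the threshold, and other fits called them. Csnk1a1 passed in DESeq2 (0.0168), limma-voom without and with quality weights (0.0456 and 0.0140), upper-quartile scaling (0.0302) and with a minimum of 10 counts in each tumour (0.0316), and Csnk1d passed in DESeq2 (0.0157) and with quality weights (0.0115). With quality weights Csnk1e (0.0379), Gsk3a (0.0392), Fbxw11 (0.0294) and Ncor1 (0.0128) passed as well. Among the omissions of a tumour, Csnk1d passed without VC replicate 1 (0.0373) or miR-21-KD replicate 2 (0.0485), Csnk1e and Ncor1 without VC replicate 4 (0.0301 and 0.0248), Csnk1a1 without VC replicate 1 (0.0267), and Fbxw11 without miR-21-KD replicate 2 (0.0381). With the replicate block Csnk1a1 (0.0458), Fbxw11 (0.0419) and Ncor1 (0.0194) passed.

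**Figure D3:**
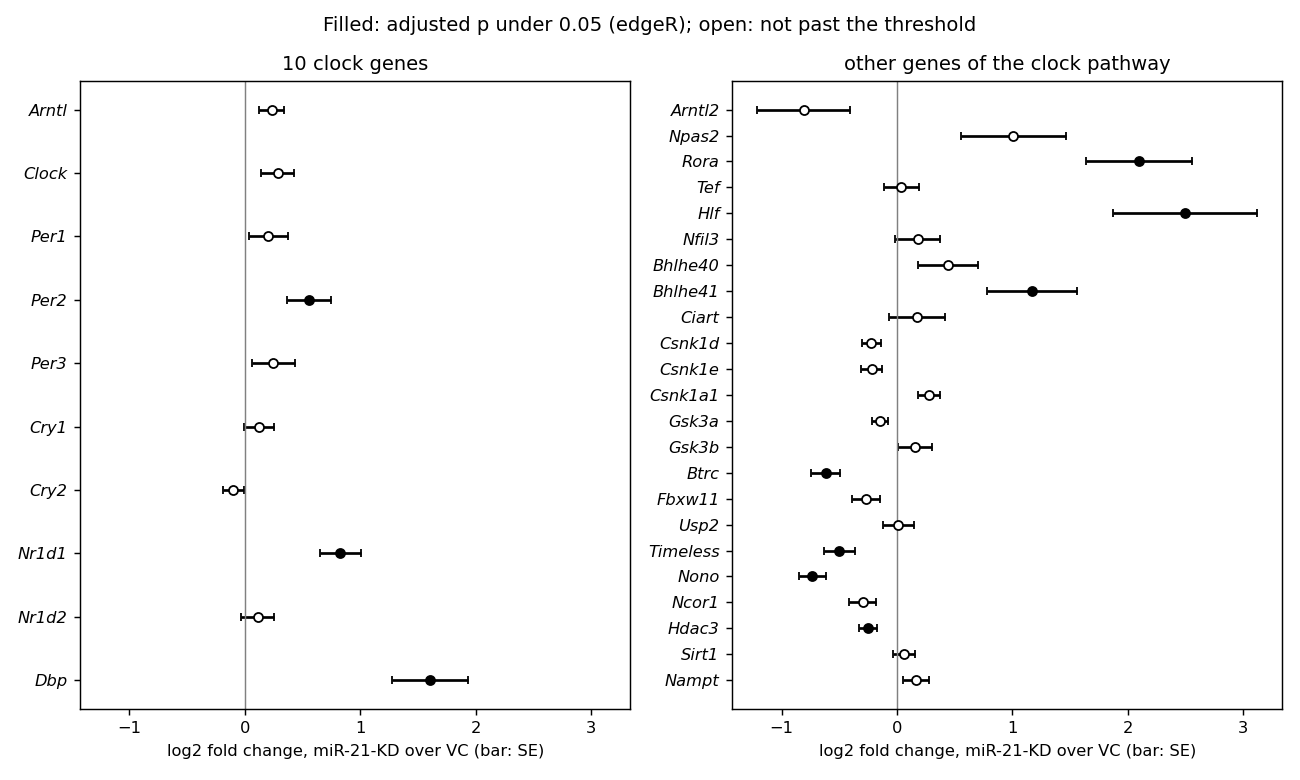
Log2 fold change of miR-21-KD over VC with its standard error for the 10 clock genes (left) and other tested genes of the clock pathway (right), filled where the adjusted p of edgeR was under 0.05. Filled points on the left, Per2, Nr1d1 and Dbp, all lie above 0, whereas on the right Rora, Hlf and Bhlhe41 lie above and Btrc, Timeless, Nono and Hdac3 below.

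Cell type markers differed between the groups along with the clock genes. All 11 tested adipocyte markers of a list of 12 were higher in miR-21-KD tumours (median log2 fold change 2.59), and their summed level was 546.2, 131.8, 202.5 and 281.6 CPM in VC against 1382, 773.2, 1140 and 2149 CPM in miR-21-KD replicates 1 to 4. Among them, Plin1, which coats lipid droplets, rose by 2.99 (adjusted p = 0.00719) and Adipoq, the adiponectin gene, by 2.46 (adjusted p = 0.0125). Fibroblast markers were higher in 8 of 10 genes, with sums of 3593 to 9105 CPM in VC against 11310 to 25160 CPM in miR-21-KD tumours. As for Dbp, the lowest miR-21-KD tumour in both the adipocyte and the fibroblast sum was replicate 2 and the highest VC tumour was replicate 1. The highest miR-21-KD tumour was replicate 1 for Dbp and the fibroblast sum but replicate 4 for the adipocyte sum. The lowest VC tumour was replicate 3 for Dbp and replicate 2 for both sums. Leukocyte markers were higher in 9 of 17, with sums of 1299 to 2320 and 2262 to 4061 CPM. Endothelial markers moved little as a list (2 of 10 higher and 1 lower, median -0.01), with sums of 672.5 to 959.3 and 835.2 to 1087 CPM.

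Epithelial markers, the class nearest to the tumour cells, were detected in every tumour with sums of 1306 to 2264 CPM in VC against 903.2 to 2016 CPM in miR-21-KD tumours, so their sum was not higher with the knockdown although 7 of the 9 markers rose and the median log2 difference was 1.52. The abundant keratin Krt18 fell by 1.15 (adjusted p = 0.0374), whereas Krt19 rose by 3.60 (adjusted p = 0.00688). Of 14 proliferation genes 13 were lower (median log2 difference -1.27), among them Aurkb, a mitotic kinase. The count was 8 without VC replicate 2 or 3 or miR-21-KD replicate 3 or 4. The list summed to 1938 to 2654 CPM in VC against 700.4, 1881, 936.3 and 812.1 CPM in miR-21-KD replicates 1 to 4. Replicate 2 was thus nearest to VC in this sum, as it was for Dbp, Nr1d1 and Per2. The part of these differences in the levels of the clock genes was not tested.

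**Figure D4:**
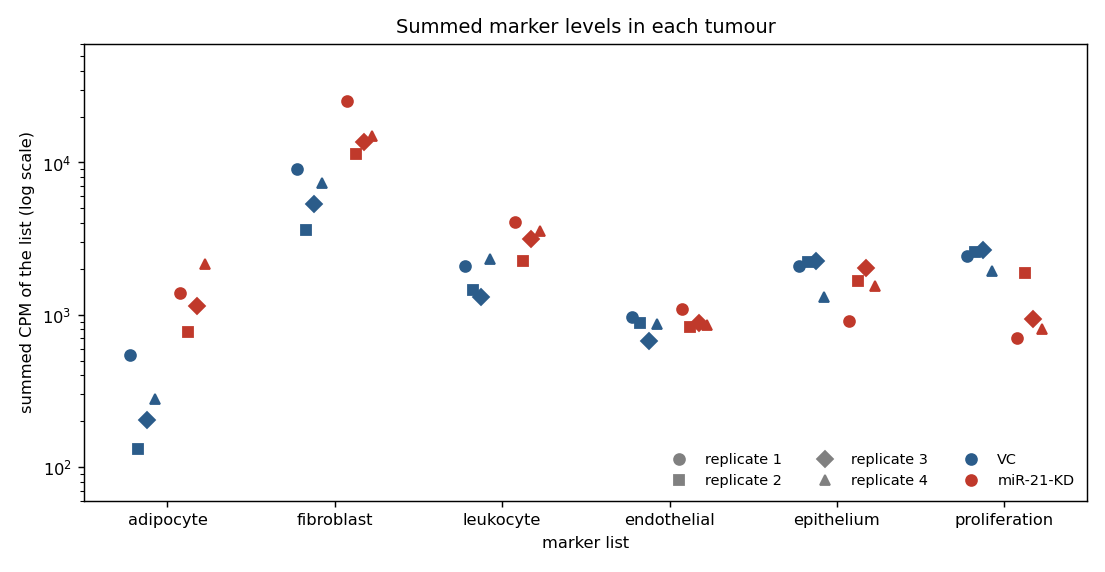
Summed CPM of each marker list (log axis) in the VC (blue) and miR-21-KD (red) tumours, with a symbol for each replicate number. Adipocyte and fibroblast sums are separate between the groups and higher in miR-21-KD tumours, proliferation sums are lower, and endothelial sums overlap.

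Because Per1 and Per2 also answer to hormones and acute stimuli, 2 further lists were looked up. Of 11 glucocorticoid-responsive genes, 4 were higher and 1 was lower (median log2 fold change 0.59). Across all tested genes 39.1% passed in either direction and 19.6% upwards. The 5 calls were thus near the overall share, and the 4 upward ones were above the upward share, in a list of only 11 genes. Cebpd, a transcription factor induced by glucocorticoids and inflammation, rose by 1.43 (adjusted p = 0.00571) and Tsc22d3 (GILZ) by 0.52 (adjusted p = 0.0224), whereas Fkbp5, the co-chaperone of the glucocorticoid receptor, fell by 0.76 (adjusted p = 0.0153). The count of 5 was 3 without VC replicate 2 or miR-21-KD replicate 3 and 2 without VC replicate 3, miR-21-KD replicate 1 or miR-21-KD replicate 4. Of 10 immediate early genes, 3 were higher and 0 lower (median 0.24). As for the clock genes, this was below the overall share and somewhat above the upward share. The 3 genes were Ier2 (0.54, adjusted p = 0.0135), Atf3 (0.75, adjusted p = 0.0135) and Junb (0.65, adjusted p = 0.0347). Fos had a log2 fold change of 0.36 (adjusted p = 0.279) and Egr1 of 0.18 (adjusted p = 0.370).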

How the data were processed

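Total RNA of 8 whole tumours was sequenced. The deposited table holds raw counts per Entrez gene, not normalized, with 1 column per tumour. The submitters' processing notes name mm10, Subread, featureCounts, edgeR and limma, without versions. Annotation and strand setting are not given in the sources used here. Symbols were matched for 25275 of 27179 identifiers (RefSeq, GRCm38.p6), and exon lengths and overlaps were taken from GENCODE M21 on the same assembly.

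Genes were kept by filterByExpr (minimum count 10, minimum total 15), scaled with TMM and tested with the robust quasi-likelihood test of edgeR 4.0.16 in R 4.3.3, with Benjamini-Hochberg adjustment over all 14382 genes and a threshold of 0.05. Standard errors are the absolute log2 fold change divided by the root of the F statistic, and log2 CPM used a prior count of 2. P-values cover the spread between these tumours. Floors cover counting error only. No tumours of a group were alike within sampling noise (chi-square per degree of freedom of 13.3 or more).

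Labels number the tumours 1 to 4 in both groups. Deviations from the group means of same-numbered tumours correlated at 0.272, 0.421, 0.175 and 0.376. The main fit did not use these numbers, so its fold changes, adjusted p-values and shares are unpaired. The fit with the replicate block was an alternative and is given where it changed a call of a clock pathway gene. It called 6485 of all tested genes, against 5626 in the main fit.

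Alternatives were DESeq2 1.42.0, upper-quartile scaling or library size alone, the table unfiltered or held to 10 counts per tumour, limma-voom (limma 3.58.1) with and without quality weights, the replicate block, an adjusted p under 0.01 and each tumour left out. Members and lists were chosen with earlier results of these data known. The text names the clock genes (the results of some of the other clock pathway genes are counted but not reported here), up to 3 genes of each other list by adjusted p, the 2 nearest patterns of each called member, and genes overlapping a member. Fos, Egr1, Adipoq, Krt18, Cd79a, Ms4a1 and the seed search were chosen after the values were seen. On simulated counts (14273 genes) the test recovered 52% of 2-fold and 94.9% of 4-fold changes. Only 200 genes were set to change there, against 5626 called in the data, which makes the adjustment stricter in the simulation. These shares are therefore not the recovery rates of the real comparison.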

Additional observations from a re-analysis of the deposited data

Results flagged for a closer look

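In 70 groups of 4 tumours (the 35 tested clock pathway genes in both groups), 5 values stood apart from the other 3 tumours of their group by more than Dixon's 95% critical value for 4 samples, a limit that chance passes in about 1 group in 20. Of the 10 core clock genes, Arntl in VC replicate 1 (14.01 CPM) was above its group and Per2 in miR-21-KD replicate 2 (16.98 CPM) was below its group. Without miR-21-KD replicate 2 the log2 fold change of Per2 was 0.69 with an adjusted p of 0.00856. Of the other clock pathway genes, Npas2 in miR-21-KD replicate 1 (5.254 CPM) and Timeless in miR-21-KD replicate 2 (35.61 CPM) were above their groups, and Csnk1d in VC replicate 1 (224.2 CPM) was below its group.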

How the results depend on the processing

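The estimates of the 10 clock genes kept their sign in all 160 combinations of gene and alternative, and 149 kept their side of the threshold as well. At a threshold of 0.05 Dbp and Nr1d1 passed in all 16 other fits and Per2 in 8 of them, and at 0.01 Dbp alone of the 10 passed. The number of clock genes past the threshold was 1 at an adjusted p under 0.01 and 2 to 4 with a tumour left out. For the other clock pathway genes it was 16 with quality weights, 3 at 0.01 and 4 to 11 with a tumour left out, for all genes 1426 at 0.01 and 2936 to 6840, for glucocorticoid-responsive genes 1 and 2 to 6, for immediate early genes 0 and 2 to 3, and for proliferation genes 3 and 8 to 14. The sign changed for genes near 0. Tef was -0.008 without VC replicate 1, -0.053 without miR-21-KD replicate 1 and -0.025 without miR-21-KD replicate 4 (range over omitted tumours -0.053 to 0.157). Usp2 was -0.013 with library size alone, -0.023 without a filter, -0.051 with quality weights, -0.024 and -0.038 without VC replicates 2 and 4, and -0.020 and -0.044 without miR-21-KD replicates 1 and 4 (range -0.044 to 0.062). Sirt1 was -0.016 without VC replicate 4 (range -0.016 to 0.101). The causes were not tested. With the replicate block 3 clock genes passed, Clock in place of Per2, and 12 other clock pathway genes, and the block changed no call of a clock pathway gene beyond those given in the text. Upper-quartile scaling moved the median of all genes from -0.01 to 0.03. Each group holds 4 tumours from a single time point, so neither phase nor amplitude of a rhythm can be read from these levels. In simulated counts, where far fewer genes were changed than were called here, a 2-fold change was often missed. How often such a change was missed in these tumours is not known.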

Other observations

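Markers of tissues next to the mammary fat pad were looked up as well. Of 8 skeletal muscle markers 5 had too few reads to be tested, and the sum of the list was 17.7 to 27.5 CPM in VC and 29.5 to 49.2 CPM in miR-21-KD tumours. Des, which smooth muscle also expresses, made up most of the mean sum in both groups and rose from 13.4 ± 5.73 to 33.4 ± 7.005 CPM (± SD of 4 tumours), whereas Myh1, a myosin of skeletal muscle, fell from 4.98 ± 1.77 to 0.892 ± 0.998 CPM. Of 8 skin and basal epithelium markers 5 were tested, 2 were higher (Krt5 and Krt14, keratins of basal cells) and Krt10, a keratin of differentiated epidermis, was lower, with sums of 15.2 to 85.4 and 37.6 to 279.8 CPM. These values were not set against the clock genes by any test.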
